A study of Mus musculus with 2 samples.

Results

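The chemokine genes Cxcl13, Cxcl12 and Cxcl14 and the receptor genes Cxcr4 and Ackr3 were followed in single-cell RNA-seq of cranial neural crest cells (CNCCs) from mouse heads at embryonic stage E11.5. These are 5 of the 32285 genes counted, taken by their symbols, and the group was chosen by its readout, the mutant against control difference of Cxcl13 in these same counts. The mutant against control values of Cxcl13 are therefore given as a description. The control library held cells of 2 pooled embryos that were heterozygous at both loci (Tfap2a wt/flox and Tfap2b wt/flox). The mutant library held cells of 2 pooled siblings with both alleles floxed at each locus (Tfap2a flox/flox and Tfap2b flox/flox). All 4 embryos were Wnt1CRE+, with a driver that acts in premigratory neural crest and in the dorsal midbrain and hindbrain, and r26 mTmG/mTmG, a reporter that turns recombined cells green. Heads were taken down to the otic vesicle and arch 2, and green cells were sorted from them, so the sorted cells include neurons and progenitors of the brain. With 1 library a group there was no replicate error and no test. Every interval below is a 95% interval that covers counting error only. The control pool was female and the mutant pool male, with Xist at 1259.9 against 0.0777 UMIs per 1000000 and 4 Y-linked genes together at 0.0243 against 153.3, and the effects of genotype and of sex cannot be told apart.

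Chemokines are small secreted proteins that bind G protein-coupled receptors and direct the movement of cells. CXCL12 signals through CXCR4 and guides neural crest cells, neuronal precursors and germ cells, while ACKR3 binds and internalises CXCL12 without coupling to G proteins and so shapes its gradients. CXCL13 is best known for drawing B cells into lymphoid follicles through CXCR5, and CXCL14 is a chemokine of epithelia and mesenchyme. Tfap2a and Tfap2b encode paralogous transcription factors of the neural crest and the facial mesenchyme.

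The promoters of the ligand with the largest difference and of the most widely detected ligand are printed so that the bases upstream of each gene can be compared. Each run is the 250 bases before the RefSeq start site, read 5′ to 3′ on the strand of the gene in GRCm38.p6, and capitals mark TATAAA. The Cxcl13 run is chr5:95956689-95956938 on the plus strand, and the Cxcl12 run is chr6:117168285-117168534 on the plus strand.
Cxcl13: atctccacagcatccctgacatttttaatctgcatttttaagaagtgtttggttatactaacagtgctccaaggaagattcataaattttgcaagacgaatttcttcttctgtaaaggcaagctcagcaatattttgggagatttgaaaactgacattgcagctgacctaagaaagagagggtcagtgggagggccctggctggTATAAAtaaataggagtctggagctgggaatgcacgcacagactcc
Cxcl12: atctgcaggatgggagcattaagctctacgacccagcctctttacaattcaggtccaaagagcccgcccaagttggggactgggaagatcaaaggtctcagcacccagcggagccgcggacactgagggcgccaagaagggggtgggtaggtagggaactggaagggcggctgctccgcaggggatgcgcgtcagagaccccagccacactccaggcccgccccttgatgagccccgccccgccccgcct

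The Cxcl13 window held 42% G and C and 1 TATAAA match, 46 to 41 bases before the start. The Cxcl12 window held 64.4% G and C and no such match. TFAP2 proteins bind palindromes of GCC and GGC. Neither GCCNNNGGC nor the same letters with 4 bases between them were found in the windows of any of the 5 genes, on either strand. The TFAP2 palindrome SCCTSRGGS, where S is C or G and R is A or G, was not found either. These motifs were present in 13.7%, 12.3% and 7.25% of 32851 promoter windows of the same length, and TATAAA in 12.4%. Of the other 3 genes, Cxcr4 held 2 overlapping TATAAA matches on opposite strands and Ackr3 held 1. The absence of a match says only that these letters are not in the window.

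After filtering, 5625 control and 5587 mutant barcodes were kept, with median depths of 13478 and 12234 UMIs, where a UMI counts 1 captured transcript molecule. The libraries shared 5 kept barcodes. Cells fell into mesenchyme (3759 control and 2807 mutant cells), neurons (841 and 1345), brain progenitors (765 and 1233) and glia (260 and 202). Doublet calls made up 1.65% and 3.06% of the cells. In mesenchyme, Tfap2a stood at 19.5 against 13.4 UMIs per 1000000 (log2 ratio of mutant over control -0.55, interval -0.69 to -0.40) and Tfap2b at 56.8 against 47.2 (-0.27, -0.35 to -0.19). Transcript ends are counted, so reads of the recombined alleles may remain in these values, which was not tested. Tfap2a is overlapped by the antisense genes Gm47061, Gm26688 and Gm47067, and whether reads were counted by strand is not given in the sources used here. Mesenchyme was divided into 8 finer clusters, with 97 genes kept out of the clustering, the chemokine family, Tfap2a, Tfap2b, Pax3, Pax7, Alx1 and Crabp1 among them. Finer cluster 0 was maxillary-like, 1 mandibular-like, 2 second arch-like, and 3 and 4 frontonasal-like. Finer cluster 5 was led by Tagln, Vtn and Zic1, and finer cluster 6 by Ebf2, Shisa3 and Cyp26a1. Finer cluster 7 held 40 and 80 cells, of which 72.5% and 66.2% were called doublets. A coarser clustering joined nearly all of finer clusters 4 and 5 with a smaller part of finer cluster 3. This cluster, called broad cluster 1 here, was led by Tfap2b, Pax7 and Lum and held 1139 control and 777 mutant cells. By its markers it was periocular and meningeal-like. Its mean log2 ratio over the other mesenchyme cells was 2.16 for the periocular and meningeal markers and 1.86 for the frontonasal markers.

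Cxcl13 (ENSMUSG00000023078, in GRCm38 chr5:95956951-95961068, plus strand) lay almost wholly in mesenchyme in the control library and was far lower in the mutant. Mesenchyme held 350 of its UMIs in 138 of 3759 control cells and 36 in 25 of 2807 mutant cells. With CPM for UMIs per 1000000 UMIs of the same cells, this is 6.004 CPM (5.39 to 6.67) against 0.823 (0.577 to 1.14), 7.29-fold lower, with a log2 ratio of -2.87 (-3.40 to -2.37). Positive cells made up 3.67% of control mesenchyme (3.09 to 4.32) and 0.891% of mutant mesenchyme (0.577 to 1.31). With each cell thinned to 5000 UMIs, these shares averaged 1.90% and 0.484% over all draws. Few molecules were found outside mesenchyme. There were 1 control and 2 mutant UMIs in neurons, 1 and 1 in brain progenitors, and 6 and 0 in glia, where 4 of 260 control cells were positive and 0 of 202 mutant cells allows a share of up to 1.48%. Neurons, which gave positive shares of 0.119% and 0.149% at median depths of 9586 and 9621 UMIs, serve as the background for the mesenchyme, whose median depths were 14557 and 14452. Both mesenchyme shares lay above it.

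Within mesenchyme, 66.9% of control Cxcl13 UMIs lay in finer cluster 4, which held 12.9% of the control cells. This cluster was named frontonasal-like by a narrow margin. Its mean log2 ratio over the other mesenchyme cells was 1.09 for the frontonasal markers and 1.06 for the periocular and meningeal markers. It was led by Tfap2b, Crym, Tfap2a, Shox2, Crabp1 and Six2, with Lum and Foxc1 also among its leading genes. It held 234 UMIs in 70 of 486 control cells and 2 UMIs in 2 of 295 mutant cells. The level was 28.6 CPM (25.1 to 32.6) against 0.401 (0.0485 to 1.45), a log2 ratio of -6.16 (-9.21 to -4.29), at median depths of 15990 and 15853 UMIs per cell. Mutant cells of the cluster were therefore present at a like depth, with almost no Cxcl13. The 8 neuron markers moved with this result, at 46.4 against 98.2 CPM summed and 7 of 8 higher in the mutant, and their part in it was not tested. Finer cluster 5 held 48 UMIs in 16 control cells and 7 in 2 mutant cells, a log2 ratio of -2.71 (-4.10 to -1.56). The other frontonasal-like cluster, finer cluster 3, held 49 UMIs in 35 control cells and 13 in 7 mutant cells, a log2 ratio of -1.15 (-2.16 to -0.24). The difference was smaller there than in finer cluster 4, which was not tested. The intervals treat UMIs as independent, while the 10 richest control cells of finer cluster 4 held 42.3% of its control Cxcl13 UMIs. Mandibular-like cells had 15 against 4 UMIs, and maxillary-like cells had 2 against 5. Second arch-like cells had 0 against 1, and finer cluster 6 had 1 against 4. Of the 36 mutant UMIs, 36.1% lay in finer cluster 3 and 5.56% in finer cluster 4, so what was left had another distribution than in the control.

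**Figure D1:**
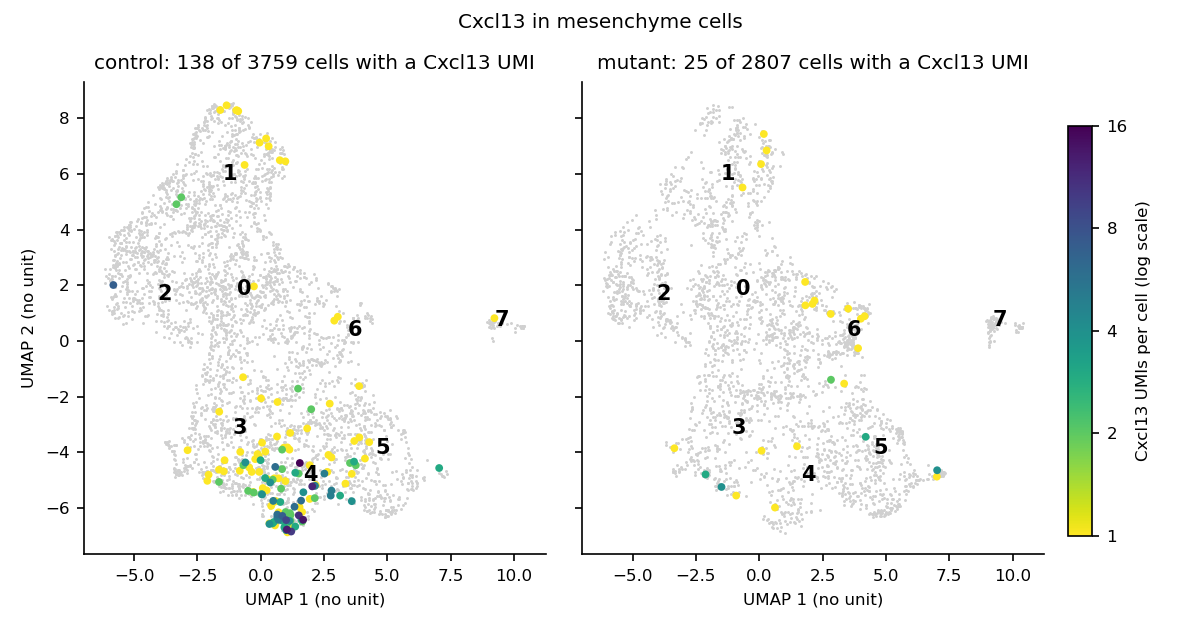
Map of mesenchyme cells by library, with UMAP coordinates on both axes (no unit), cells without a Cxcl13 UMI in grey and cells with one coloured by their number of UMIs on a log scale. Numbers mark the 8 finer clusters. The 138 positive control cells crowd around and below the number of finer cluster 4, while the 25 positive mutant cells are scattered.

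Over mesenchyme as a whole, positive cells also carried fewer Cxcl13 molecules in the mutant. In control mesenchyme, 73 positive cells had 1 UMI, 45 had 2 to 4, 14 had 5 to 9 and 6 had 10 or more, with a maximum of 16. In mutant mesenchyme, 20 cells had 1 UMI, 5 had 2 to 4 and none had more than 4. The mean was 2.54 UMIs per positive control cell and 1.44 per positive mutant cell. These means pool clusters that differ in level. In finer cluster 3, 28 control cells had 1 UMI, 6 had 2 to 4 and 1 had 5 to 9, against 4, 3 and 0 mutant cells. In finer cluster 5 these were 5, 7 and 3 control cells against 0, 2 and 0 mutant cells. In neither cluster was the mean per positive cell lower in the mutant, though the mutant cells were few. The 10 control cells with the most molecules held 30.0% of the control UMIs. The 10 richest mutant cells held 58.3% of the mutant UMIs. Leaving out the 10 richest cells of each library therefore took unequal parts, and the log2 ratio was then -3.62. With the control's mix of finer clusters the ratio was -2.83, and with its mix of broad clusters -2.73.

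Of the 5 genes, 4 had 100 UMIs or more in mesenchyme of 1 or both libraries, and Cxcl13 alone was 1.5-fold or more lower, as were 0.919% of the 11646 genes that met this minimum. None was 1.5-fold or more higher, as were 2.27%. Only 11 of these genes, Cxcl13 included, had a log2 ratio this low. In broad cluster 1, 3 members met the minimum, and again Cxcl13 was lower (326 against 18 UMIs, log2 ratio -3.50, -4.27 to -2.82) where 1.34% of 9645 genes were, and none was higher where 3.95% were. In finer cluster 4, 1 of 3 members was lower and none higher, where 1.7% and 2.42% of 7812 genes were. Cxcl13 was known to differ before it was chosen, so nothing is read from these counts.

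The cells that made Cxcl13 in the control had a recognisable set of other transcripts. In broad cluster 1, thinned to 5000 UMIs, 51 control cells were positive for Cxcl13 and 1050 were negative. Among genes with 50 UMIs or more in the positive cells, the highest ratio was that of Pax3, a paired-box factor of the neural crest, at 207.8 against 82.1 CPM (log2 1.34, 0.90 to 1.75). Crabp1, a carrier of retinoic acid, followed at 0.99 (0.92 to 1.07) and Tfap2b ranked 4 at 0.83 (0.48 to 1.17). The other genes of the first 10 were Adgrl2, Zfhx4, Uhrf1, Nop56, Mrpl51, Rfc2 and Nr2f1, at 0.92 down to 0.61. Among listed genes with fewer UMIs, Pax7 stood at 1.47 (0.93 to 1.96) and Tfap2a at 1.03 (0.34 to 1.65). Positive cells were low for Six2, a factor of nasal and jaw mesenchyme, at -1.95 (-3.17 to -0.96), and for Cxcl12 at -1.81 (-2.76 to -0.99). Cxcl13-positive cells were thus Pax3, Pax7 and Tfap2 rich and Six2 and Cxcl12 poor within the cluster. Ackr3 was at 51.0 against 51.8 CPM, with a log2 ratio of -0.02 (-0.95 to 0.78). Pax3 and Crabp1 had lower levels in mutant cells of broad cluster 1, with log2 ratios of mutant over control of -1.26 (-1.41 to -1.11) and -1.30 (-1.32 to -1.27). Tfap2a stood at -0.84 (-1.04 to -0.64) and Pax7 at -0.80 (-0.97 to -0.63). Zfhx4 (-0.29), Nop56 (-0.24), Tfap2b (-0.13) and Adgrl2 (-0.11) had smaller differences with intervals below 0, and Six2 stood at -0.05 (-0.16 to 0.05).

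Some of these genes were used to divide the cells of finer cluster 4, a choice made after these values had been seen, with all UMIs counted. Of 243 control cells with a Pax3 or Pax7 UMI, 65 were positive for Cxcl13, which is 26.7% (21.3 to 32.8). Of the 243 control cells without one, 5 were positive, which is 2.06% (0.671 to 4.74). Of 60 mutant cells with a Pax3 or Pax7 UMI, 2 were positive, 3.33% (0.406 to 11.53), and of 235 without one, none was, which allows a share of up to 1.28%. Cells with a Pax3 or Pax7 UMI were 50% of the control cells and 20.3% of the mutant cells of the cluster. They were thus a smaller share of the mutant cells, and mutant cells with such a UMI were rarely positive. Whether such cells were fewer or held fewer Pax3 and Pax7 molecules each was not tested. Of control cells with a Cxcl12 UMI, 26 of 280 were positive, 9.29% (6.16 to 13.3), and of those without, 44 of 206, 21.4% (15.97 to 27.6). In the mutant these were 1 of 178 and 1 of 117. Of control cells with a Tfap2a or Tfap2b UMI, 67 of 377 were positive, 17.8%, and of those without, 3 of 109, 2.75%. Of mutant cells with such a UMI, which does not tell an intact from a recombined allele, 2 of 199 were positive, 1.01%. In 1 random thinning to 5000 UMIs, the shares for cells with a Pax3 or Pax7 UMI were 18.1% of 160 control cells and 2.86% of 35 mutant cells.

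**Figure D2:**
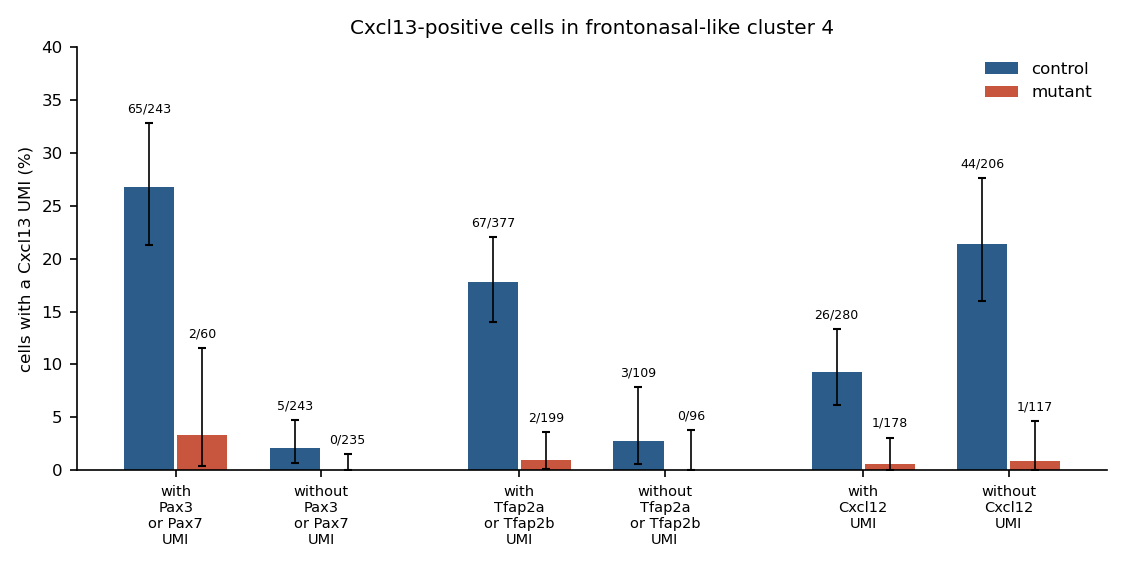
Percentage of cells of finer cluster 4 with a Cxcl13 UMI (vertical axis), for cells with or without a UMI of the named genes (horizontal axis), in the control (blue) and the mutant (red). Bars start at 0, error bars are exact 95% intervals and the fraction above each bar gives positive cells over all cells. Control bars reach 26.7% with a Pax3 or Pax7 UMI and 21.4% without a Cxcl12 UMI, while no mutant bar exceeds 3.33%.

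The genes most like Cxcl13 were sought over 34 profiles from 18 clusters, each profile being a cluster of 1 library with 50 cells or more. Profiles share a library, its depth and its embryos, so the correlations are descriptions over 13021 genes. The first was Cldn10, a tight-junction claudin (Pearson r = 0.786), then Car12, a membrane carbonic anhydrase (0.785), and Hpse2, a relative of heparanase (0.758). Next came Slc35f2, Eps8 and Cpxm2, then Hapln1, which links hyaluronan to proteoglycans, S100a6 and Sgpp2, at 0.747 down to 0.655. The mutant profiles took part in this choice, so lower mutant levels are partly built in. In finer cluster 4, each of these genes but Cpxm2 had a log2 ratio with an interval below 0, from -0.85 for Hapln1 to -2.84 for Car12, with Sgpp2 at -2.72 and S100a6 at -1.95. Cpxm2 stood at -0.58 (-1.41 to 0.20). None reached the -6.16 of Cxcl13.

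Cxcl12 (ENSMUSG00000061353, chr6:117168535-117181367, plus strand) was the widespread mesenchymal ligand in both libraries. Mesenchyme held 5817 of its UMIs in 1748 control cells and 5362 in 1463 mutant cells, which was 96.7% and 93.5% of all Cxcl12 UMIs. The level was 99.8 against 122.6 CPM, a log2 ratio of 0.30 (0.24 to 0.35). Positive cells made up 46.5% (44.9 to 48.1) and 52.1% (50.2 to 54.0), and 28.4% and 33.1% after thinning. With the control's mix of finer clusters the log2 ratio was 0.14, and with its mix of broad clusters 0.32. By finer cluster, the order of the control levels ran from cluster 6 (366.7 CPM) and cluster 5 (281.8) through clusters 4 (130.0), 2 (120.3), 1 (98.2) and 0 (68.3) to cluster 3 (15.3). Clusters 4 and 2 have overlapping intervals, while the other neighbours in this order differ beyond counting error. The frontonasal-like clusters 3 and 4 thus differed widely from each other, and finer cluster 6, with the highest control level, held 92 control and 195 mutant cells. The mutant order was cluster 5 (321.7), 6 (309.6), 4 (137.3), 2 (137.1), 1 (97.8), 0 (75.9) and 3 (27.2).

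In finer cluster 3, Cxcl12 had 169 UMIs in 114 of 698 control cells and 177 in 86 of 436 mutant cells. The log2 ratio was 0.83 (0.52 to 1.15) and it was 1.5-fold or more higher, as was Cxcl14, the other of the 2 genes past this limit among 3 members tested. Of 8547 genes, 0.901% were higher by this measure and 0.538% lower, and none of the members was lower. The 10 richest mutant cells held 38.4% of these Cxcl12 molecules, and without the 10 richest cells of each library the log2 ratio was 0.53, short of 1.5-fold. The 8 neuron markers moved with these results, at 46.45 against 73.4 CPM summed and all 8 higher in mutant cells of the cluster, and their part was not tested. Clusters 0, 2 and 5 stood at 0.15, 0.19 and 0.19, cluster 1 at -0.01 and cluster 4 at 0.08 (-0.06 to 0.22). Cluster 6 had a lower mutant level at -0.24 (-0.44 to -0.04). In the cluster with the largest Cxcl13 difference, the Cxcl12 interval therefore spanned 0. In glia the log2 ratio was 1.15 (0.46 to 1.86) from 31 and 45 UMIs, of which the 10 richest cells held 80.6% and 93.3%, and without them it was -0.36. The genes most like Cxcl12 over the 34 profiles were Tgfbi, Foxc2, Bgn, Col1a1 and Foxd1, with Pearson r from 0.961 to 0.928, which include matrix genes and forkhead factors of periocular mesenchyme.

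Cxcl14 (ENSMUSG00000021508, chr13:56288643-56296551, minus strand) marked the second arch-like cluster in both libraries. Mesenchyme held 1123 UMIs in 379 control cells and 1103 in 287 mutant cells, at 19.3 against 25.2 CPM, a log2 ratio of 0.39 (0.27 to 0.51). The share of positive cells was nearly equal, at 10.1% (9.14 to 11.1) and 10.2% (9.13 to 11.4). The mean was 2.96 and 3.84 UMIs per positive cell. Finer cluster 2 held 451 UMIs in 187 control cells and 627 in 180 mutant cells, 51.0 against 77.6 CPM, with a log2 ratio of 0.60 (0.43 to 0.78). It was the 1 of 3 members that passed 1.5-fold there, where 1.27% of 8054 genes were higher and 0.795% lower. Without the 10 richest cells of each library the log2 ratio was 0.57, short of 1.5-fold. Finer cluster 3 held 127 UMIs in 41 cells against 149 in 26, a log2 ratio of 1.00 (0.64 to 1.35). The 10 richest cells held 54.3% and 81.2% of those molecules, and without them the log2 ratio was -0.26. A few cells therefore carried the difference in finer cluster 3. Finer cluster 4 held 24 UMIs in 8 cells against 2 in 2, a log2 ratio of -2.87 (-5.999 to -0.86), and 17 of the 24 were in a single cell. The maxillary-like cells stood at 15.5 against 13.4 CPM (-0.22, -0.55 to 0.10), and the mandibular-like cells at 25.0 against 22.9 (-0.12, -0.42 to 0.17). The profiles most like it were those of Dlx6, Dlx5, Hmx1 and Rhobtb3, with r from 0.808 to 0.760, among them distal-less genes of the pharyngeal arches.

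**Figure D3:**
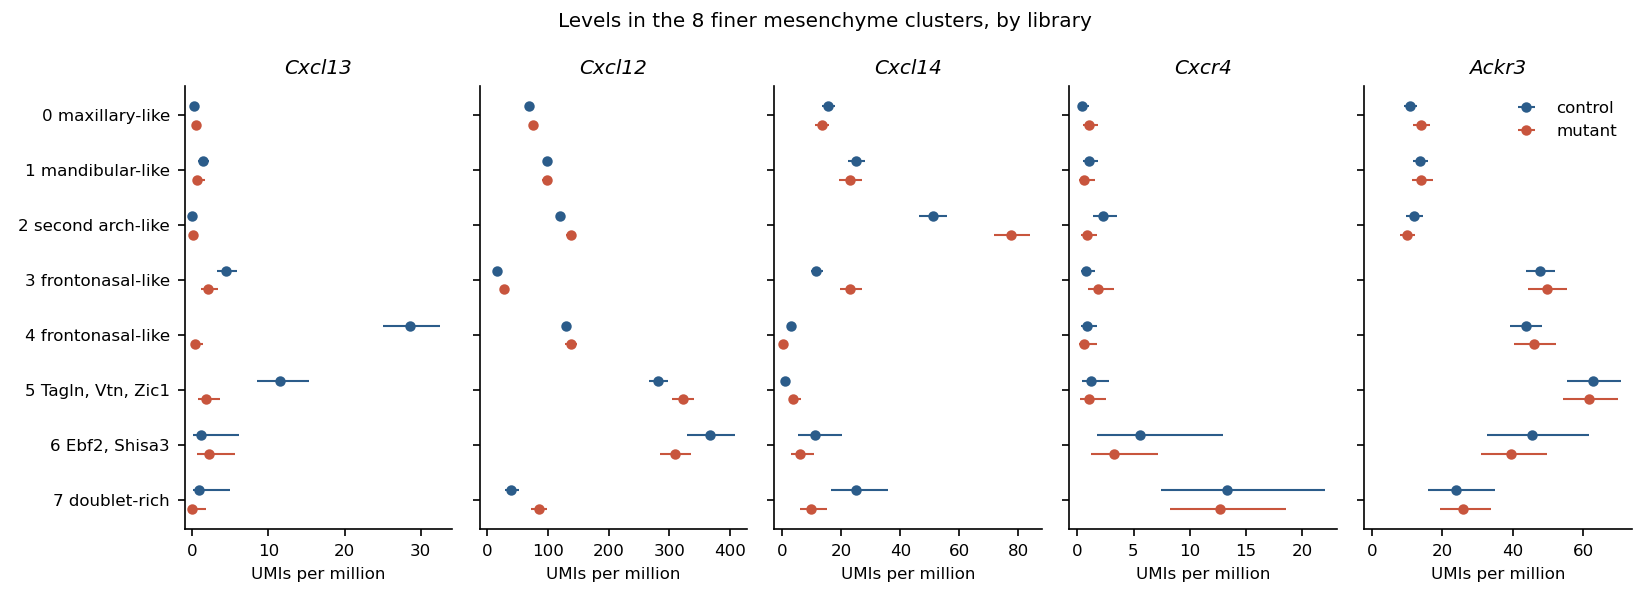
CPM (horizontal axis, linear, a scale of its own for each gene) of the 5 genes in the 8 finer mesenchyme clusters (vertical axis), control in blue and mutant in red, with exact 95% counting intervals. Cxcl13 is at 28.6 in control and 0.401 in mutant cells of cluster 4, Cxcl12 is highest in clusters 5 and 6, Cxcl14 in cluster 2, and Ackr3 runs high in clusters 3 to 6 in both libraries.

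Cxcr4 (ENSMUSG00000045382, chr1:128588199-128592293, minus strand) was the receptor of the neural cells. Neurons held 51.2% and 51.0% of its UMIs, brain progenitors 32.5% and 36.0%, and mesenchyme 5.68% and 3.63%. Neurons stood at 76.1 against 67.0 CPM, with a log2 ratio of -0.18 (-0.32 to -0.04) and 272 of 841 against 423 of 1345 positive cells. Brain progenitors stood at 47.0 against 47.2, with a log2 ratio of 0.00 (-0.17 to 0.18). Mesenchyme stood at 1.36 against 1.65, from 79 and 72 UMIs in 65 and 63 cells, a log2 ratio of 0.28 (-0.20 to 0.76). This is 1.73% and 2.24% positive cells, against 32.3% and 31.4% in neurons, and the doublet-rich finer cluster 7 alone gave 15 and 26 of these UMIs. The 8 neuron markers stood at 58.4 and 97.1 CPM summed in mesenchyme, all 8 higher in the mutant, and their part in the Cxcr4 value was not tested. None of 3 members tested in neurons passed 1.5-fold, where 0.724% of 9800 genes were lower and 1.26% higher. None of 4 passed in brain progenitors, where 0.49% and 1.2% of 9600 were.

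Among the neural clusters, Cxcr4 was highest in the one led by Gm26872, Lhx2 and Robo3, at 207.8 CPM (171 UMIs in 51 of 63 control cells) against 140.1 (199 UMIs in 68 of 104 mutant cells), a log2 ratio of -0.57 (-0.87 to -0.27). The rhombic lip-like cluster led by Atoh1 followed at 105.8 against 83.2, a log2 ratio of -0.35 (-0.61 to -0.08). Both held lower mutant levels beyond counting error. The clusters led by Otp (71.2 and 82.7) and by Msx3 (69.1 and 77.6) overlapped in their intervals. The progenitor cluster led by Hes5 and Sox3 stood at 46.9 and 45.5, and the inhibitory neuron-like cluster at 29.5 and 26.01. The cluster led by Syt4 and Neurog2 stood higher in the mutant, at 50.5 and 72.2, with a log2 ratio of 0.52 (0.01 to 1.04). The lowest level was in the roof plate-like cluster led by Ttr, at 9.33 and 17.8. The genes most like Cxcr4 in profile were Epb41l4a, Snx10, Srgap3, Syt11 and Sars, at r of 0.963 to 0.925.

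In glia, Cxcr4 was higher in the mutant, with 148 UMIs in 64 of 260 control cells and 187 in 62 of 202 mutant cells. The level was 29.3 (24.8 to 34.4) against 56.7 (48.9 to 65.4) CPM, a log2 ratio of 0.95 (0.63 to 1.27). It was the only member with 100 UMIs there, and it passed 1.5-fold where 4.53% of 6469 genes were higher and 5.15% lower. Neuronal markers moved with this result. The 8 neuron markers summed to 2533.0 CPM in control glia and 329.1 in mutant glia, with all 8 lower in the mutant. In glia without a UMI of Neurod1 or Isl1, 142 cells in each library, Cxcr4 stood at 41.8 against 69.6, a log2 ratio of 0.73 (0.37 to 1.1), with 46 and 48 positive cells. Thinned to 5000 UMIs, 15.7% and 21.3% of these cells were positive. The part of the neuronal transcripts in the result was not tested. Without called doublets it was 1.03 (0.71 to 1.36).

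Ackr3 (ENSMUSG00000044337, chr1:90203980-90216751, plus strand), the scavenging receptor, lay mostly in mesenchyme, at levels that differed by less than counting error. Mesenchyme held 1609 UMIs in 987 control cells and 1231 in 742 mutant cells, at 27.6 against 28.2 CPM, a log2 ratio of 0.03 (-0.08 to 0.14). Positive cells made up 26.3% (24.9 to 27.7) and 26.4% (24.8 to 28.1). Finer cluster 5 was highest at 62.7 against 61.7, then 3 at 47.8 against 49.7, 6 at 45.4 against 39.6 and 4 at 43.7 against 46.1, and these last 3 do not differ beyond their intervals. Clusters 1, 2 and 0 stood lower, at 13.6, 11.9 and 10.7 in the control and 13.99, 9.90 and 13.96 in the mutant. The maxillary-like, mandibular-like and second arch-like clusters thus had lower levels than clusters 3 to 6 in both libraries. Among clusters 0 to 6 only the maxillary-like one had an interval clear of 0, at 0.38 (0.03 to 0.73). Brain progenitors stood at 27.7 and 26.8, neurons at 9.72 and 9.21 and glia at 8.71 and 12.1. The profiles most like it were those of Myh10, Samd4, Marveld1, Chst14 and Rab29, at r of 0.825 to 0.798.

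**Figure D4:**
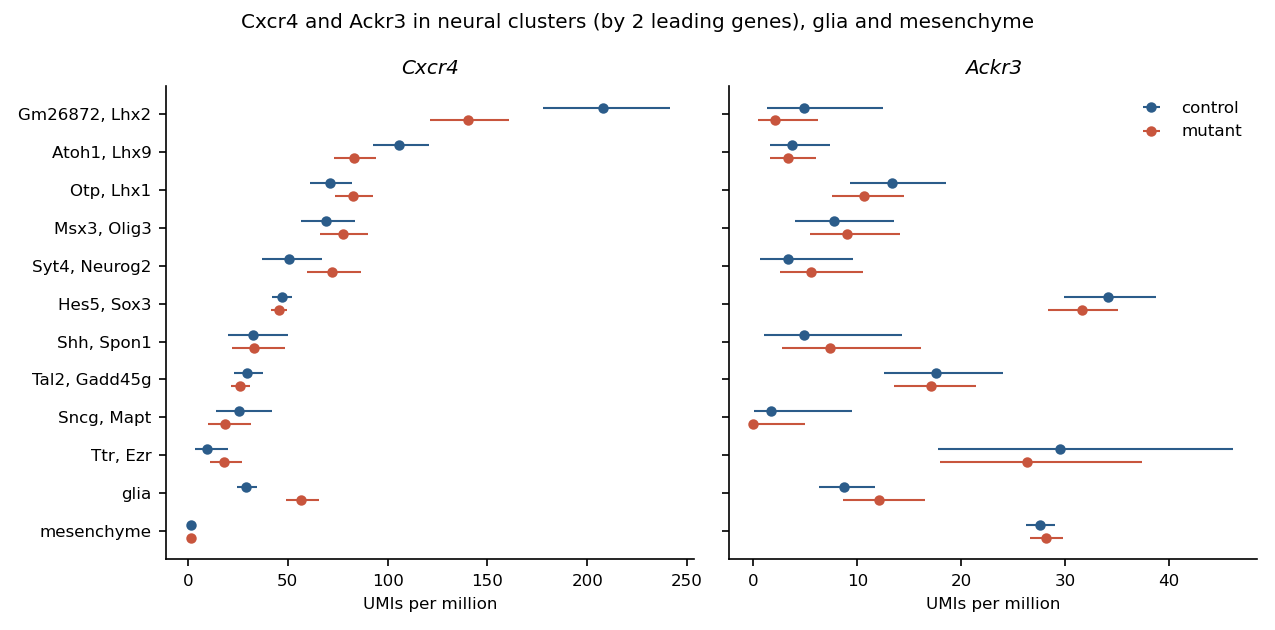
CPM (horizontal axes, linear) of the receptor genes Cxcr4 and Ackr3 in 10 neural clusters named by their leading genes, in glia and in mesenchyme (vertical axis), control in blue and mutant in red, with exact 95% counting intervals. Cxcr4 spans 207.8 to 1.36 in the control from the Gm26872 and Lhx2 cluster to mesenchyme, and Ackr3 is at 27.6 in mesenchyme and 34.1 in the Hes5 and Sox3 progenitors.

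Ligands and receptors were also compared cell by cell, in 1 random thinning to 5000 UMIs. Cxcl13 and Cxcl12 were found together in 8 of 60 Cxcl13-positive control mesenchyme cells, 13.3%, against 28.9% of the Cxcl13-negative ones, and in finer cluster 4 in 2 of 35, where the product of the shares gives 11.9. Cxcl13 and Cxcl14 were never found together in mesenchyme, where 3.32 control cells would follow from the shares. Within broad cluster 1 and finer cluster 4 the shares gave only 0.19 and 0.15 control cells. The lack of joint cells therefore cannot be told from the different regions of the 2 genes. Cxcl13-positive control cells thus held Cxcl12 less often than Cxcl13-negative ones, though thinning lowers joint detection. With all UMIs counted, 26 Cxcl13-positive control cells of finer cluster 4 had a Cxcl12 UMI and 44 had none. Cxcl12 and Ackr3 were together in 143 control and 127 mutant mesenchyme cells, against 130.3 and 109.7 from the shares. Within broad cluster 1 the numbers were 75 and 65 against 75.3 and 69.7, and within the second arch-like broad cluster 28 and 33 against 17.0 and 21.3. The mandibular-like broad cluster had 20 and 7 against 14.1 and 4.85, and the maxillary-like one 19 and 19 against 26.3 and 18.1. Cxcr4 and Ackr3 shared 21 control and 32 mutant brain progenitors, against 19.7 and 28.0.

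**Figure D5:**
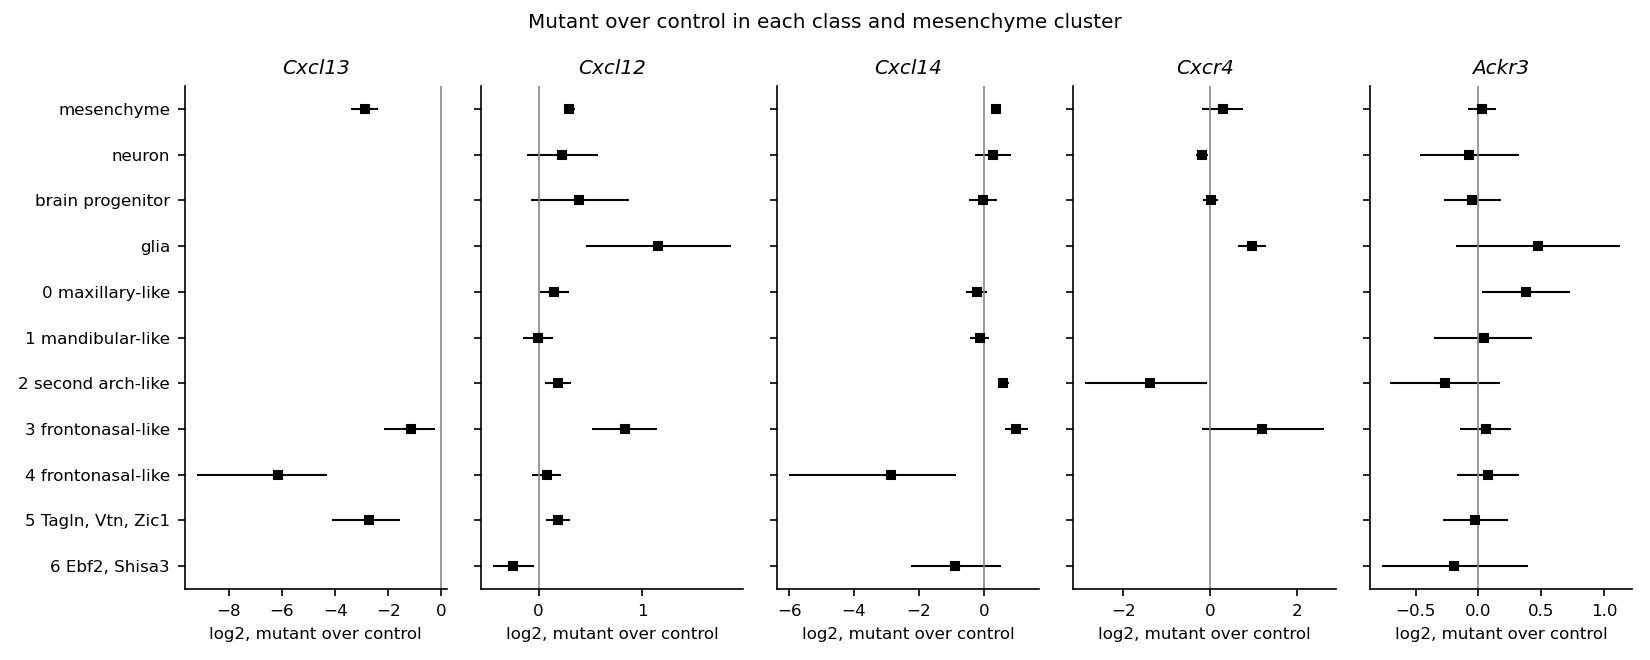
Log2 ratio of mutant over control (horizontal axis, a scale of its own for each gene) with exact 95% counting intervals in the 4 classes and 7 finer mesenchyme clusters (vertical axis), drawn where both libraries together had 20 UMIs or more and neither was at 0. Cxcl13 lies left of the line at 0 wherever it is drawn, down to -6.16 in cluster 4, Cxcr4 lies right of it in glia at 0.95, and Ackr3 lies between -0.26 in cluster 2 and 0.48 in glia.

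Most other genes of the chemokine family had few or no molecules in these cells, with Ccl25 and Ccl27a as exceptions. Of 61 listed ligands and receptors, 60 were in the files, 16 had no UMI in a kept cell, 34 had 1 to 29 in the richer library and 10 had 30 or more. Apart from the 5 genes above, these were Ccl25, Ccl27a, Cxcl5, Cx3cl1 and Ackr1. Cxcr5, the receptor of CXCL13, had 0 control UMIs and 1 mutant UMI over all cells. Expression of this receptor was therefore not detectable at this depth among the sorted cells. Cxcl5, a ligand of neutrophils, had 47 against 10 UMIs in mesenchyme, a log2 ratio of -1.82 (-2.97 to -0.81), below the 100 UMIs set for a call. Cx3cl1 lay mostly in brain progenitors, with 61 and 90 UMIs, and Ackr1 in neurons, with 88 and 147. Ackr1 also had 39 control UMIs and 2 mutant UMIs in glia, where neuronal markers differed as given above. Ccl25 stood at 1539 against 1199 UMIs in mesenchyme (0.05) and Ccl27a at 778 against 551 (-0.08). In mesenchyme, 6 family genes met the minimum, with 1 lower (Cxcl13) where 0.919% of all genes were, none higher where 2.27% were, and a median log2 ratio of 0.04, beside 0.02 over all genes. Of 20 listed genes of chemokine signalling, such as the G protein subunit Gnai2, the arrestins Arrb1 and Arrb2, the kinases Grk2 and Grk3 and the heparan sulfate carriers Sdc1 and Gpc3, 17 met it in mesenchyme. None of these 17 passed 1.5-fold in either direction, beside the same 0.919% and 2.27%, with a median of 0.03. In glia, 1 of 13 was higher, the heparan sulfate carrier Sdc4, with 115 UMIs in each library, where 4.53% of all genes were higher.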

How the data were processed

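The authors sorted green cells, made 10x Genomics 3′ libraries, and deposited raw UMI counts per gene and filtered barcode, made with Cell Ranger 6.0.0 (per the file headers) on mm10. Seurat 4.3.0, bcl2fastq and Cell Ranger are named in the submitters' processing notes. The deposited files are the only source of the values here. The members and gene lists were chosen with earlier results of these data known.

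Barcodes with at most 10% mitochondrial UMIs and 200 to 7500 genes were kept, 5625 of 6148 control and 5587 of 6063 mutant barcodes, with 82313680 and 77251738 UMIs. Libraries were integrated and clustered in Seurat 5.3.0 (R 4.3.3) from 2000 variable genes, of which 1965 were used, since 97 genes (the chemokine family, haemoglobin genes, sex-linked genes and genes the study examined) were kept out. All cells were clustered in 30 dimensions at resolution 0.05, mesenchyme in 20 dimensions at 0.2 (broad clusters) and 0.4 (finer clusters). Neurons and brain progenitors were divided with the clusters at 0.4. Clusters were named only from listed markers. Doublets were called with Scrublet in scanpy 1.11.5 and kept, and leaving them out was an alternative.

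UMIs were summed per library and cluster and divided by the summed total, as UMIs per 1000000 (CPM). Intervals are exact 95% Poisson (levels), Clopper-Pearson (shares) and conditional binomial (ratios) intervals. Thinning to 5000 UMIs left out 121 control and 173 mutant cells. Thinned shares are expectations over all draws, and cells with both genes were counted in 1 draw. A limit for 0 cells is 3 cells over the total. A gene counted as tested had 100 UMIs or more in 1 or both libraries, and a call was 1.5-fold. The fold calculation was tested on simulated data.

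Genes named were the members, Tfap2a and Tfap2b, chemokine family genes with 30 UMIs or more in 1 or both libraries, signalling genes past 1.5-fold in mesenchyme, and leading genes of clusters. For likeness, the 5 genes (10 for Cxcl13) with the highest Pearson r of log2(CPM + 10) over clusters with 50 cells or more were named, except for items not reported here. The 10 genes with the highest ratio in Cxcl13-positive over Cxcl13-negative thinned control cells, with 50 UMIs or more in the positive ones, were also named. Cxcl5, Cxcr5 and Sdc4 values, and the splits by partner genes, were chosen after values were seen where they fall outside this rule. Gene positions are those of GENCODE M21 (GRCm38), and promoters those of RefSeq (GRCm38.p6), with all 5 members matched. The alternatives were TMM factors (edgeR 4.0.16), equal weight per cell, thinning, no doublets, no integration, other cell filters, other clusters and leaving out the 10 richest cells.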

Additional observations from a re-analysis of the deposited data

Results flagged for a closer look

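The results below moved in opposite directions in different clusters or classes, each with an interval clear of 0. The difference between them was not tested, since each group had 1 library.

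Cxcl12 had a higher mutant level in finer clusters 0 (log2 ratio 0.15), 2 (0.19), 3 (0.83), 5 (0.19) and 7 (1.11), and a lower one in finer cluster 6 (-0.24). Cxcl14 was higher in finer clusters 2 (0.60), 3 (1.00) and 5 (1.97), and lower in finer clusters 4 (-2.87) and 7 (-1.35). Cluster 4 had 24 control and 2 mutant UMIs and cluster 5 had 4 and 15, and finer cluster 7 is the doublet-rich one. Cxcr4 was higher in mutant glia (0.95) and lower in mutant neurons (-0.18).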

How the results depend on the processing

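Over 45 results, 210 alternatives were computed, of which 199 left the value within its limits, 9 moved it and 2 reversed it. A change of sign counted as reversed only where the main interval was clear of 0. Some values with intervals spanning 0 also changed sign, such as Cxcr4 in mesenchyme without finer cluster 7, from 0.28 to -0.02. Cxcl12 in neurons without doublets went from 0.22 to -0.32 and counted as moved. Without the 10 cells with the most UMIs, the Cxcl13 log2 ratio in mesenchyme was -3.62. That of Cxcl12 in glia reversed to -0.36 and that of Cxcl14 in finer cluster 3 reversed to -0.26. In each of these the cells left out held a larger share of the mutant than of the control UMIs, which by itself lowers the ratio. Few UMIs were left in glia. With cells thinned to 5000 UMIs, the difference in Cxcl13-positive share was -1.41 percentage points and the Cxcl14 ratio in mesenchyme 0.52. With each cell weighted equally, the mesenchyme ratios were 0.36 for Cxcl12 and 0.52 for Cxcl14. With the control's mix of finer clusters, an alternative chosen after seeing the data, the Cxcl12 ratio was 0.14. Beyond what each alternative leaves out or reweights, the cause was not tested. The other moved values were Cxcl12 in neurons (-0.32) and Cxcl14 in glia (-2.59) without doublets, and Cxcl14 in finer cluster 2 thinned (0.82). Keeping all barcodes was run only for sums over all cells. A ratio with 0 UMIs in a library, as for Cxcl13 in glia, has no value. No paired analysis was possible because each group had 1 library. Low counts limit Cxcl13 outside finer clusters 3 to 5 and Cxcr4 in mesenchyme.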
